A study of Homo sapiens with 4 samples.

Results

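The RKO knockdown experiment comprised 2 mRNA libraries from the human colorectal cancer cell line RKO, of the 4 libraries in the series. RKO NC was the control and RKO shEZH2 carried a short hairpin RNA (shRNA) against EZH2. The study built its EZH2 hairpins in the pLKO.1 plasmid, delivered them by lentivirus and selected the cells with puromycin. Its methods do not describe what the control cells carried, or whether they were infected and selected alike. The other libraries were the same pair in HCT116 cells. The labels name no hairpin sequence and no clone. Of 7640 genes in the deposited table, 5151 had a mean level of at least 1 FPKM (fragments scaled for transcript length and for the depth of the library) over the RKO libraries and are called measured here. The change of a gene is log2(FPKM + 1) in RKO shEZH2 minus the same in RKO NC. Each group held 1 library, so no test between conditions was possible, no p-value is given, and any difference may be one between libraries. Intervals beside count ratios are exact 95% binomial intervals that cover counting error only.

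EZH2 is the catalytic subunit of PRC2, a Polycomb complex that represses genes and places methyl groups on lysine 27 of histone H3. The trimethylated form, H3K27me3, marks silent developmental and cell cycle inhibitor genes, and loss of the enzyme can lead to their expression. RKO is a colorectal cancer line with mutant BRAF and mismatch repair deficiency, in which many epithelial genes are silent. Mutant BRAF signals through the kinase ERK without an upstream growth factor.

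Estimated depth was similar in the RKO libraries, with 19020751 fragments in RKO NC and 18790427 in RKO shEZH2, estimated from 67 genes. The genes in the table took 41.5% and 43.0% of these. The filter on the mean took in 131 genes under 1 FPKM in the control and 45 under 1 FPKM in the knockdown. Of these, 82 of the former and 8 of the latter were among the higher and lower genes described below. Such genes passed the filter only through the other library, so each could be called in 1 direction only. They also count in the gene lists below.

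The cell label was checked against marker genes. Of 13 epithelial markers in the table, 9 were under 1 FPKM in RKO NC and the same number in RKO shEZH2, whereas none were under 1 FPKM in either HCT116 library. E-cadherin (CDH1) was at 0.10 FPKM in both RKO libraries against 25.3 FPKM in HCT116 NC. EPCAM, an epithelial adhesion protein, was listed at 0 FPKM in RKO NC and at 0.06 FPKM in RKO shEZH2. KRT18, a keratin of simple epithelia, stayed high at 154 and 188 FPKM, and the intestinal transcription factor CDX2 was at 6.91 and 9.24 FPKM. The mesenchymal filament gene VIM was at 0.37 and 0.60 FPKM and FN1, which encodes fibronectin, at 0.18 and 0.14 FPKM. RKO therefore lacked most epithelial transcripts and these mesenchymal ones as well. The receptor AXL of the same mesenchymal set was high, at 217 and 136 FPKM, and ZEB1 was at 1.84 and 14.97 FPKM. The 6 mesenchymal markers in the table summed to 219.8 and 151.9 FPKM in RKO, mostly from AXL, against 22.6 FPKM in HCT116 NC. Of the 4 other-cell markers in the table, the lysosomal gene CD68 was at 284 and 271 FPKM in RKO, and the other 3, for endothelium, neurons and muscle, were under 1 FPKM in both RKO libraries. Together the 4 other-cell markers summed to 283.7 and 271.8 FPKM, nearly all of it from CD68.

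EZH2 mRNA was at 33.6 FPKM in RKO NC and 6.61 FPKM in RKO shEZH2, from 1724 and 386 expected counts. The ratio of depth-scaled counts was 0.227 (95% interval 0.202 to 0.253) and the change was −2.19. On the log2(FPKM + 1) scale EZH2 had the second largest fall of any measured gene with at least 50 expected counts, after the histone gene HIST1H4J, whose reads are shared with near-identical copies. By count ratio CA9 and SNX2, described below, were lower still, at 0.199 and 0.205. In HCT116, EZH2 was at 31.5 and 12.6 FPKM, a change of −1.26, so the remaining level was lower in RKO. Whether the lines differ in this was not tested.

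Of the 7 measured genes of PRC2 and its partners, 2 were over 1.5-fold higher and EZH2 was lower. Across all measured genes 14.0% were over 1.5-fold higher and 1.88% lower. MTF2, which helps to recruit the complex to DNA, was at 4.40 and 9.05 FPKM (change 0.90). LCOR, whose locus encodes a PRC2 partner, was at 4.23 and 7.97 FPKM (0.78). Both have low-GC transcripts, and after the trend on GC content described below was subtracted their changes were 0.32 and 0.02. AEBP2 was at 3.36 and 5.26 FPKM (0.52), PHF19 at 75.5 and 94.5 FPKM (0.32), RBBP7, a histone-binding subunit, at 84.1 and 77.9 FPKM (−0.11), and EPOP at 25.9 and 23.0 FPKM (−0.16). Of 5 measured PRC1 genes, only BMI1 passed 1.5-fold, at 19.2 and 36.0 FPKM (0.87, or 0.46 with the GC trend subtracted). BMI1 belongs to the complex that ubiquitinates histone H2A.

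Among the 5151 measured genes, 723 were over 1.5-fold higher in RKO shEZH2 and 97 were over 1.5-fold lower, so 88.2% of the genes past this fold were higher. At 2-fold, the counts were 370 and 19, and at 4-fold they were 34 and 2. The median change over all measured genes was 0.02. For each of the 723 higher and 97 lower genes, the counting interval of the ratio excluded 1, which says nothing of the spread between cultures. The plot of change against level shows where the higher genes lay.

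**Figure D1:**
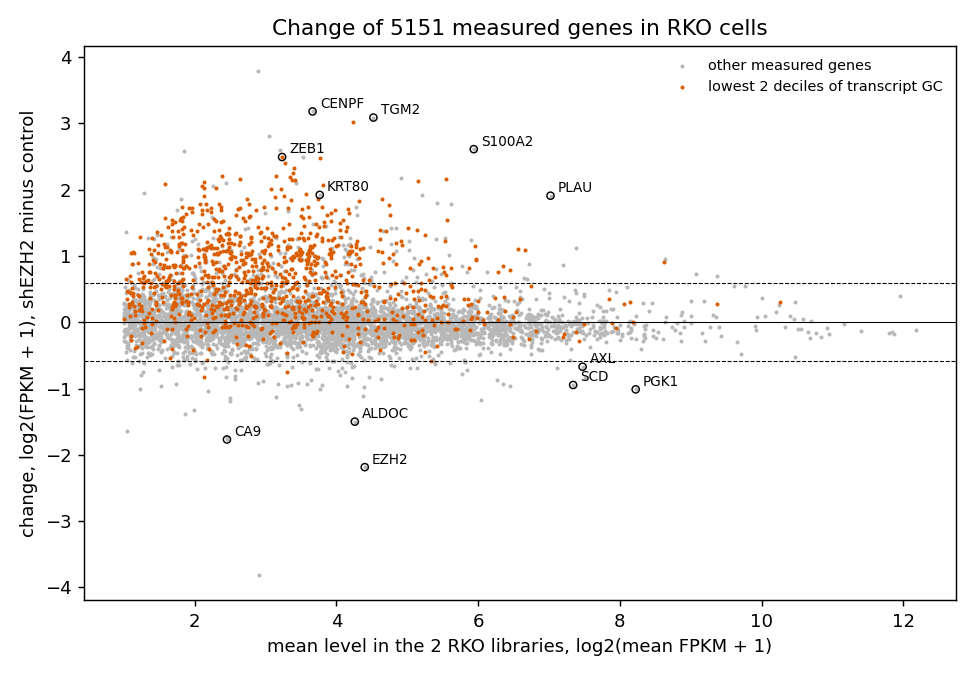
Each point is 1 of the 5151 measured genes, with its mean level in the RKO libraries on the x axis and its change (shEZH2 minus control, 1 library each) on the y axis, and dashed lines at 1.5-fold. Genes in the lowest 2 deciles of transcript GC (orange) lie mostly above 0, EZH2 lies at −2.19, and TGM2, S100A2 and PLAU, which have a higher GC content, stand above the rest of the grey points.

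The genes higher in RKO shEZH2 were largely genes with GC-poor transcripts. GC content was known for 5106 measured genes (99.1%). Of the 720 higher genes that had a value, 647 were below the median GC content of all measured genes and 73 were at or above it. The median GC content was 38.6% for the higher genes, 52.9% for the lower ones and 48.7% for all measured genes. Median transcript length was 4129 bases for the higher genes, 2269 bases for the lower ones and 2977 bases for all.

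In GC decile 1, the lowest (31.6% to 38.2%, 511 genes), the median change was 0.80, with quartiles of 0.32 and 1.16. Of these, 316 (61.8%) were over 1.5-fold higher and 0 were lower. The next decile had a median of 0.43 with 40.3% higher, and decile 3 had a median of 0.10 with 16.5% higher. From decile 5 upwards the medians lay between −0.08 and −0.03, with 1.76% to 4.31% higher. In HCT116 the same 10 groups had medians between −0.06 and 0.05. Length added to this within the GC-poor genes. In the lowest 2 deciles, the median change was 0.39 for the shortest quartile of transcripts, 0.61 and 0.64 for the middle quartiles, and 0.86 for the longest, which were over 5662 bases. In deciles 6 to 10, the medians in the same length classes lay between −0.09 and −0.06. The GC-poor genes were not limited to low levels. In the lowest 2 deciles, 54.1% of the least abundant quartile and 56.1% of quartile 3 by level were over 1.5-fold higher, against 37.9% of the most abundant quartile.

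**Figure D2:**
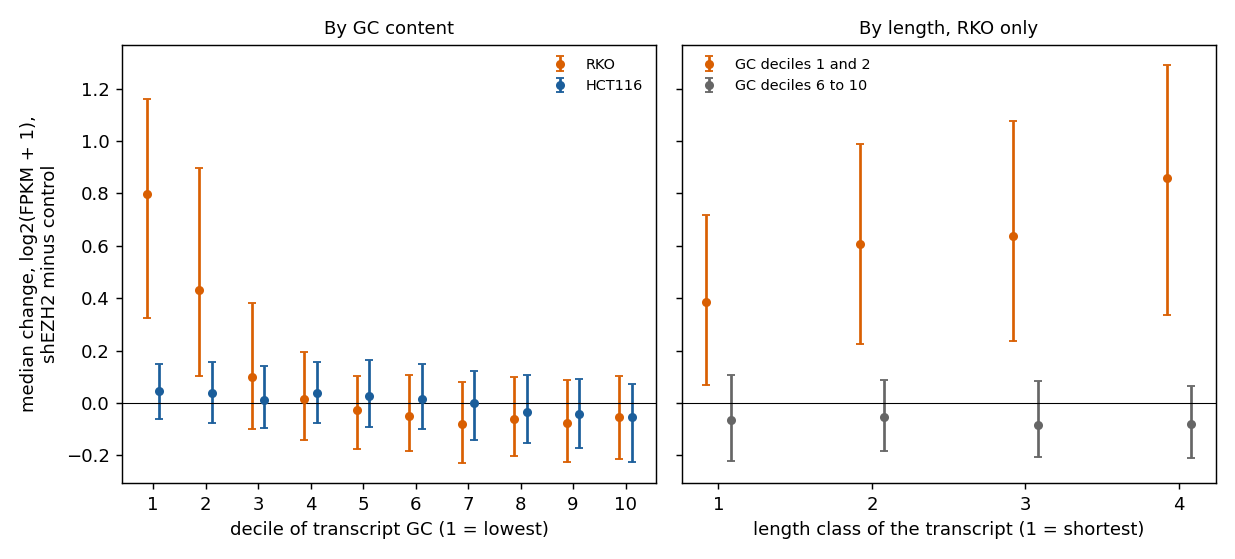
Left, median change (points) and quartiles (bars) of the measured genes in deciles of transcript GC, for RKO and for the same genes in HCT116; right, the same for RKO by length class within deciles 1 and 2 and within deciles 6 to 10. The RKO median falls from 0.80 in decile 1 to near 0 by decile 4, and within the GC-poor genes it is 0.39 for the shortest and 0.86 for the longest transcripts.

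The RKO control library was the one that stood apart. Genes of the lowest GC decile took 3.98% of the expected counts in RKO NC, 6.71% in RKO shEZH2, 7.18% in HCT116 NC and 7.21% in HCT116 shEZH2. Relative to HCT116 NC, the median log2(FPKM + 1) of these genes differed by −0.93 in RKO NC and by −0.12 in RKO shEZH2. RKO NC held the lowest value of all 4 libraries for 404 of the 511 genes. In the highest decile of GC, the corresponding shares of counts were 7.74%, 7.26%, 6.21% and 5.86%. A difference between the cells and one between the library preparations cannot be told apart with 1 library each, and it was not tested. Changes of low-GC genes are therefore given below both as measured and after a lowess trend on GC was subtracted. With that trend subtracted, 370 of 5106 genes (7.25%) were over 1.5-fold higher and 192 (3.76%) lower.

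Sequence windows show the contrast in base composition for 3 of the largest rises in GC deciles 1 and 2 and 3 of the largest in deciles 6 to 10. Each window is 90 bases from the longest coding exon of a GENCODE v29 transcript on GRCh38, taken where its GC share was nearest to that of the whole transcript, and is written 5′ to 3′ on the strand of the gene. Capitals mark G and C.
ZEB1 (chr10:31520914-31521003, plus strand, exon 7 of 9): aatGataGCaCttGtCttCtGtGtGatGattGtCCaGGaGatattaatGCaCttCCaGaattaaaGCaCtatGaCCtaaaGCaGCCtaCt
STAG2 (chrX:124086548-124086637, plus strand, exon 29 of 33): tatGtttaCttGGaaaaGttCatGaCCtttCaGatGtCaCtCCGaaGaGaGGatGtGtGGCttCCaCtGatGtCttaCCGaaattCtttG
RIF1 (chr2:151464517-151464606, plus strand, exon 30 of 35): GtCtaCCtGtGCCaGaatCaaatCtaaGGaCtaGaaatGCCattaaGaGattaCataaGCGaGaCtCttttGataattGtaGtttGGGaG
TGM2 (chr20:38138198-38138287, minus strand, exon 10 of 13): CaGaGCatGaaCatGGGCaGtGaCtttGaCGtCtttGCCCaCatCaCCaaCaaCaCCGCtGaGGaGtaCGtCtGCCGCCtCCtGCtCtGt
S100A2 (chr1:153561483-153561572, minus strand, exon 3 of 3): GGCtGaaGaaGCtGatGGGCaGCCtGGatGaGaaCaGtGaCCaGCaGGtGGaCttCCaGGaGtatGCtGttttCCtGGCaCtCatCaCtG
GFPT2 (chr5:180304785-180304874, minus strand, exon 17 of 19): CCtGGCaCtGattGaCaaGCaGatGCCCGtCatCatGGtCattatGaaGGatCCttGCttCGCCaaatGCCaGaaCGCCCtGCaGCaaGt
The windows hold 35, 37 and 34 G or C bases in the first 3 genes and 50, 49 and 47 in the last 3.

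Several of the largest rises were genes below the median GC content that RKO NC held at a small part of their HCT116 level. CENPF, with a GC content of 40.8% just outside the lowest 2 deciles, encodes a large kinetochore protein of dividing cells. CENPF was at 1.52 FPKM in RKO NC and 21.8 FPKM in RKO shEZH2, from 289 and 4124 expected counts, a ratio of 14.4 (12.8 to 16.3). In HCT116, CENPF was at 36.6 and 39.6 FPKM. STAG2, a cohesin subunit, was at 3.15 and 22.03 FPKM in RKO and at 24.6 and 25.1 FPKM in HCT116. RIF1, which acts at DNA breaks and in replication timing, was at 2.08 and 15.3 FPKM in RKO and at 11.1 and 10.2 FPKM in HCT116. RANBP2, a nuclear pore protein, was at 2.50 and 16.6 FPKM in RKO and at 20.1 and 17.6 FPKM in HCT116. For these 4 genes RKO NC was the low library and the other 3 libraries lay closer to each other. The splicing regulator PTBP2 was at 2.62 and 16.2 FPKM (2.25) and JMJD1C, a protein of the histone demethylase family, at 2.15 and 13.6 FPKM (2.21). MYBL1, a transcription factor related to MYB, was at 3.13 and 32.5 FPKM (3.02). In HCT116, PTBP2 was at 6.38 and 11.4 FPKM, JMJD1C at 10.21 and 13.65 FPKM and MYBL1 at 4.20 and 4.71 FPKM. For MYBL1, RKO shEZH2 was thus the library that stood apart, and RKO NC lay near the HCT116 level. Of the 15 largest rises, 10 had a GC content below the median. CENPF kept a change of 2.96, MYBL1 of 2.37 and STAG2 of 1.70 with the GC trend subtracted.

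The list of mesenchymal and invasion genes stood high and held few GC-poor genes. Of its 24 measured members, 11 were over 1.5-fold higher, 1 was lower and 12 lay between. Over all measured genes, 14.0% were higher and 1.88% lower. The median change was 0.55, against 0.02 over all measured genes, and 0.61 with the GC trend subtracted, when 13 were higher (7.25% of all genes with a GC value). TGM2, a transglutaminase that crosslinks extracellular proteins, was at 3.84 FPKM in RKO NC and 40.1 FPKM in RKO shEZH2, a ratio of 10.7 (9.45 to 12.1). TM4SF1, a membrane protein of migrating cells, was at 1.06 and 13.4 FPKM (2.81). ZEB1, the transcription factor that represses CDH1 in epithelial to mesenchymal transition, was at 1.84 and 14.97 FPKM, a ratio of 7.96 (6.90 to 9.22). Its change was 2.49, or 2.08 with the GC trend subtracted, while CDH1 was at 0.10 FPKM in both libraries. In HCT116, TGM2 was at 5.72 and 9.03 FPKM and ZEB1 at 1.02 and 1.36 FPKM.

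Proteins of the matrix, of its breakdown and of the cell surface were among the other higher members. PLAU, the urokinase that activates plasminogen, was at 53.7 and 204 FPKM, from 2421 and 9081 expected counts, a ratio of 3.80 (3.63 to 3.97). Its receptor PLAUR was at 79.3 and 124.8 FPKM (0.65). CAV1, the main protein of caveolae, was at 3.74 and 14.2 FPKM (1.68). The matrix crosslinking enzyme LOX was at 0.89 and 3.91 FPKM (1.38) and the collagenase MMP1 at 0.14 and 1.93 FPKM (1.36). Both passed the filter only through RKO shEZH2, so they could count only as higher. TIMP1, an inhibitor of matrix metalloproteinases, was at 269.8 and 522 FPKM (0.95), and CALD1, an actin-binding protein, at 6.28 and 13.7 FPKM (1.01). The receptor tyrosine kinase AXL was the member over 1.5-fold lower, at 217 and 136 FPKM (−0.67). The list did not move as one, since SNAI1 at 5.73 and 4.92 FPKM and CD44 at 55.5 and 62.1 FPKM differed little.

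Further large rises fell in genes outside this list, several with GC content above the median. S100A2, a calcium-binding protein of epithelial cells, was at 16.3 and 104.4 FPKM, a ratio of 6.42 (5.67 to 7.29). KCNN4, a calcium-activated potassium channel, was at 2.49 and 18.6 FPKM, a ratio of 7.30 (5.96 to 9.01). GFPT2, which makes glucosamine 6-phosphate from fructose 6-phosphate and glutamine, was at 1.63 and 14.9 FPKM, a ratio of 9.08 (7.34 to 11.3). The keratin KRT80 was at 4.68 and 20.5 FPKM (1.92). KRT81, a hair keratin with close relatives, was at 1.07 and 7.84 FPKM (2.09) and its reads may be shared with them. SPP1, which encodes osteopontin, had 1 expected count in RKO NC and 154 in RKO shEZH2, a ratio of 156 with a wide interval (27.6 to 6197). In HCT116 the changes of KCNN4, GFPT2, KRT80 and SPP1 lay between −0.14 and 0.11 and that of S100A2 was 0.54. KRT8, KRT18 and CLDN3 of the epithelial list moved by 0.10, 0.29 and 0.26. Of its 17 measured members 1 was higher (TSPAN1, 1.2 and 2.45 FPKM) and 1 lower, beside 14.0% and 1.88% of all measured genes.

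**Figure D3:**
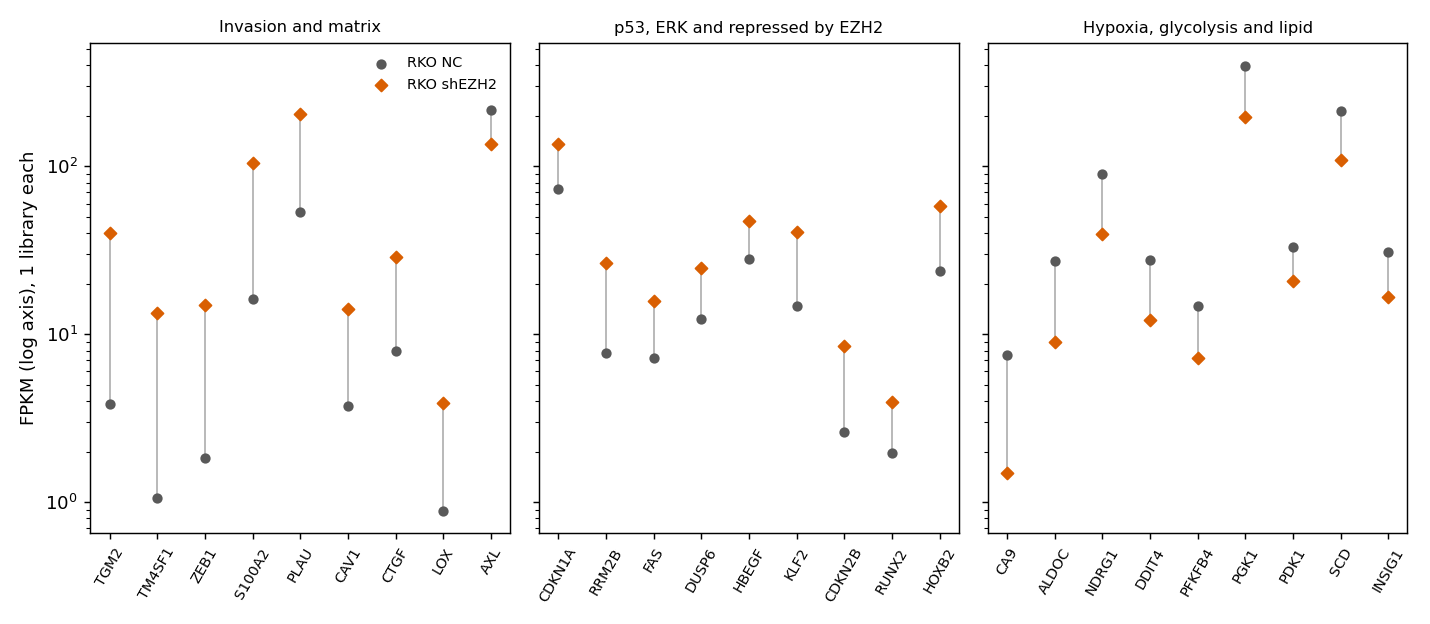
FPKM on a log axis in RKO NC (circles) and RKO shEZH2 (diamonds), 1 library each, for 9 genes in each of 3 groups. In the left panel all but AXL were higher in RKO shEZH2 (TGM2 3.84 against 40.1 FPKM), in the middle panel all 9 were higher, and in the right panel all 9 were lower (CA9 7.48 against 1.49 FPKM). The genes were chosen with their values known, so these directions are not a result about the lists. Higher members of the hypoxia and glycolysis lists, such as ANGPTL4, PKM and SLC2A3, are not shown.

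Genes reported as repressed by EZH2 were few among the measured genes. Of 33 listed, 21 were in the table and 9 were measured. Of these 9, 3 were over 1.5-fold higher and 0 lower, beside 14.0% and 1.88% of all measured genes. The median change was 0.34, and 0.39 with the GC trend subtracted. KLF2, a transcription factor that restrains growth and inflammation, was at 14.7 and 40.9 FPKM, a ratio of 2.79 (2.57 to 3.03). CDKN2B, the inhibitor p15 of the cyclin D kinases, was at 2.60 and 8.54 FPKM, a ratio of 3.28 (2.79 to 3.88). RUNX2, a transcription factor of bone formation, was at 1.95 and 3.94 FPKM (0.74). GADD45A was at 53.9 and 68.4 FPKM (0.34) and the death receptor TNFRSF10B at 37.5 and 51.2 FPKM (0.44). KLF2, CDKN2B and RUNX2 kept changes of 1.48, 1.39 and 0.71 with the GC trend subtracted.

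Few developmental genes were past 1.5-fold, and as measured their share was below the 14.0% of all measured genes that were higher. Of these developmental genes, 0 lay in the lowest 2 GC deciles. With the GC trend subtracted, 3 of 26 HOX genes and 3 of 32 other developmental factors were higher. The share of all genes with a GC value was then 7.25%, below both of these. Of 26 measured HOX genes, which are classical Polycomb targets, 2 were over 1.5-fold higher and 0 lower, with a median change of 0.18. HOXB2 was at 23.9 and 58.5 FPKM, a ratio of 2.41 (2.18 to 2.66), and HOXB8 at 6.40 and 10.7 FPKM (0.66). HOXB4 was at 5.93 and 9.17 FPKM (0.55) and HOXA10 at 9.30 and 12.9 FPKM (0.43), while HOXC4 was at 3.29 and 2.30 FPKM (−0.38). Of 32 other measured developmental transcription factors, 3 were higher, which were KLF2, RUNX2 and TFAP2A, and the median was −0.0032. TFAP2A was at 5.66 and 9.86 FPKM (0.71).

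p53 targets were mostly on the higher side. Of 22 measured members, 6 were over 1.5-fold higher and 0 lower, beside 14.0% and 1.88% of all measured genes. The median change was 0.44, or 0.36 with the GC trend subtracted. At a threshold of 1.2-fold, 15 were higher and 0 lower, where 25.8% of all measured genes were higher and 12.8% lower. CDKN1A, the cell cycle inhibitor p21, was at 73.5 and 135.7 FPKM, from 2977 and 5394 expected counts, a ratio of 1.83 (1.75 to 1.92). RRM2B, a ribonucleotide reductase subunit, was at 7.71 and 26.4 FPKM (1.65, or 0.89 with the GC trend subtracted). The death receptor FAS was at 7.21 and 15.9 FPKM (1.04, or 0.63 with it subtracted) and ZMAT3, an RNA-binding protein, at 4.54 and 10.3 FPKM (1.02, or 0.65). GDF15, a secreted stress protein, was at 9.68 and 16 FPKM (0.67). MDM2, the ubiquitin ligase of p53, was at 24.2 and 34.1 FPKM (0.47) and PHLDA3 at 15.3 and 16.9 FPKM (0.14), so some targets moved little.

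In this BRAF-mutant line, 6 of 26 measured ERK targets and feedback genes were over 1.5-fold higher and 0 lower. Over all measured genes these shares were 14.0% and 1.88%. The median change of the list was 0.12. DUSP6, the phosphatase that switches off ERK, was at 12.4 and 24.9 FPKM (0.95). EGR3 was at 2.78 and 5.80 FPKM (0.85) and EGR1, like it an immediate early transcription factor, at 16.9 and 26.1 FPKM (0.60). HBEGF, a ligand of the EGF receptor, was at 28.0 and 47.0 FPKM (0.72), and IER3 at 23.9 and 42.1 FPKM (0.79). ERRFI1, an inhibitor of the EGF receptor, was at 15.2 and 24.8 FPKM (0.67). None of the 6 lay in the lowest 2 GC deciles. At 1.2-fold, 9 members of the list were higher and 4 lower, beside 25.8% and 12.8% of all measured genes. Those lower were CCND1 (−0.50), FOSL2 (−0.43), SPRY1 (−0.33) and DUSP7 (−0.29), so the list did not move as one.

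In the other signaling lists a few members were past 1.5-fold, mostly in shares near or below the 14.0% of all measured genes that were higher. With the GC trend subtracted, the share of all genes was 7.25%. Above it lay Hippo (3 of 22), TGF-beta and BMP (3 of 23), Notch (2 of 16) and FoxO (4 of 39). Below it lay Wnt (1 of 24), interferon (2 of 29) and glutathione and NRF2 (1 of 22). Of 22 measured Hippo and YAP genes, 4 were higher and AXL was lower, with a median of 0.26 that was 0.05 with the GC trend subtracted. The secreted matrix protein CTGF was at 7.91 and 28.7 FPKM, a ratio of 3.63 (3.22 to 4.10). BIRC2, an inhibitor of apoptosis in TNF signaling, was at 7.38 and 26.4 FPKM (1.71), and its relative BIRC3 at 0.62 and 2.48 FPKM (1.10, or 0.12 with the GC trend subtracted). Of 23 TGF-beta and BMP genes, 3 were higher and the median was 0.01. SMAD3, a transducer of TGF-beta signals, was at 10.4 and 23.1 FPKM (1.07) and the repressor TGIF1 at 16.2 and 26.5 FPKM (0.68). Of 24 Wnt genes, only APC, the GC-poor scaffold of beta-catenin breakdown, passed 1.5-fold, at 0.66 and 5.92 FPKM (2.06). Of 16 Notch genes, ADAM10, a protease that cleaves Notch, was at 10.2 and 24.4 FPKM (1.18) and HES1 at 3.73 and 6.52 FPKM (0.67). Of 29 interferon and antigen presentation genes, 3 were higher, among them IFIT5 at 4.43 and 9.40 FPKM (0.94, or 0.30 with the GC trend subtracted) and GBP3 at 2.52 and 6.48 FPKM (1.09), while ISG15 was at 57.6 and 43.4 FPKM (−0.40). Of 39 FoxO signaling genes, 6 were higher and 1, the AMP-activated kinase subunit PRKAG1, was lower, at 49.7 and 32.0 FPKM (−0.62). NFE2L2, the transcription factor NRF2 of the antioxidant response, was at 14.7 and 25.03 FPKM (0.73) and was the 1 member over 1.5-fold higher among 22 glutathione and NRF2 genes, whose median was 0.10.

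**Figure D4:**
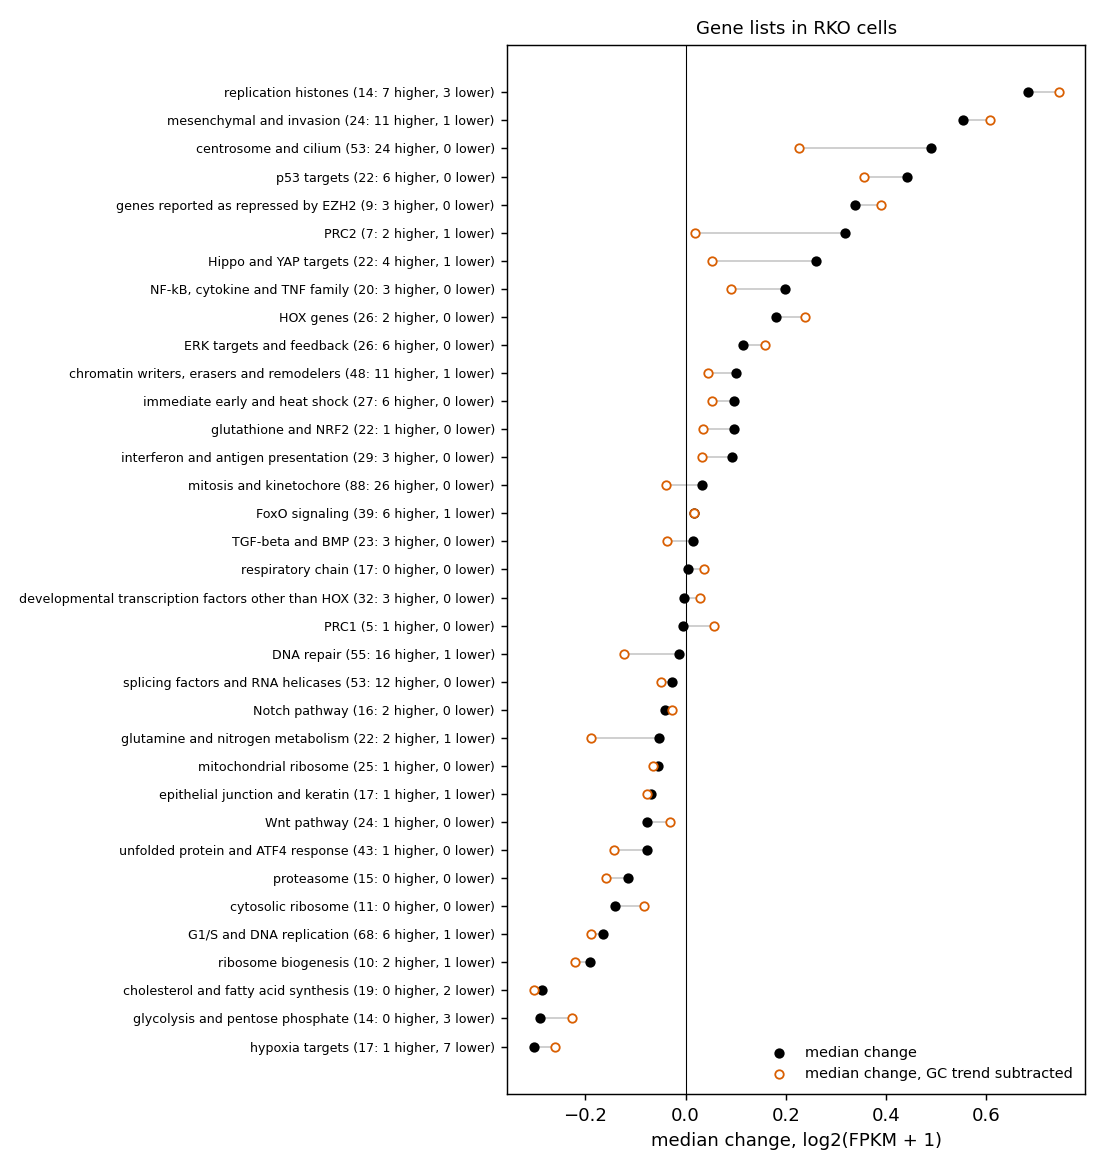
Median change over the measured members of each gene list with at least 5 of them (filled points) and the same with the trend on GC subtracted (open points), beside the number measured and the numbers over 1.5-fold higher and lower. Replication histones and mesenchymal genes have the highest medians (0.68 and 0.55) and hypoxia, glycolysis and lipid synthesis genes the lowest (−0.30, −0.29 and −0.29), while the centrosome list moves from 0.49 to 0.23 when the trend is subtracted.

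Higher mitotic genes were mostly GC-poor. Of 88 measured mitosis and kinetochore genes, 26 were over 1.5-fold higher and 0 lower, beside 14.0% and 1.88% of all measured genes. The median change was only 0.03, and 22 of the 26 lay in the lowest 2 GC deciles. With the GC trend subtracted, 16 were still higher and 2 lower, beside 7.25% and 3.76% of all genes with a GC value. The median was then −0.04. The spindle protein ASPM was at 0.87 and 7.61 FPKM (2.20), the condensin subunit SMC2 at 2.70 and 14.0 FPKM (2.01), the kinesin KIF14 at 1.89 and 9.49 FPKM (1.86) and the kinetochore scaffold KNL1 at 2.05 and 9.5 FPKM (1.78). Some well-known mitotic genes differed little. The mitotic kinase PLK1 was at 88.1 and 89.9 FPKM (0.03), cyclin CCNB1 at 128 and 129 FPKM (0.01), AURKB at 114.7 and 112.8 FPKM (−0.02) and the proliferation marker MKI67 at 37.8 and 43.4 FPKM (0.19). PLK1, CCNB1, AURKB and MKI67 were chosen after their values were seen.

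Centrosome and cilium genes were higher in a large share. Of 53 measured genes, 24 were over 1.5-fold higher and 0 lower, beside 14.0% and 1.88% of all measured genes. Of the 24, 19 lay in the lowest 2 GC deciles. Some of the 24, such as DYNC2H1 and CEP290, were under 1 FPKM in RKO NC. These were measured only through RKO shEZH2, so they could count only as higher. Over all measured genes, 82 of the 723 higher genes were of this kind. The median change of 0.49 was 0.23 with the GC trend subtracted. With that trend subtracted 11 were higher and 1 lower, beside 7.25% and 3.76% of all genes with a GC value. SASS6, which sets the symmetry of the centriole, was at 1.11 and 5.52 FPKM (1.63, or 0.70 with it subtracted). PCM1, the scaffold of centriolar satellites, was at 5.11 and 17.4 FPKM (1.59, or 1.25). The dynein of ciliary transport DYNC2H1 was at 0.36 and 2.33 FPKM (1.29, or 0.82).

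In replication, repair, chromatin and splicing the higher genes also lay mostly in the lowest 2 GC deciles. With the GC trend subtracted, 2 of 68 replication genes, 4 of 55 repair genes, 8 of 48 chromatin genes and 9 of 53 splicing genes were higher. Over all genes with a GC value the share past 1.5-fold was then 7.25%. The chromatin and splicing shares lay above it, the repair share near it and the replication share below it. As measured, 14.0% of all measured genes were higher. Of 68 G1/S and DNA replication genes, 6 were higher, all 6 in the lowest 2 GC deciles, and the median was −0.17. They included CCNE2, a cyclin that drives entry into S phase, at 4.18 and 12.8 FPKM (1.42, or 0.52 with the GC trend subtracted), and GINS2, a subunit of the replicative helicase, was the 1 lower gene, at 67.7 and 39.1 FPKM (−0.78). Of 55 DNA repair genes, 16 were higher, 13 of them in the lowest 2 GC deciles, and 1 was lower (FANCC, of the Fanconi anaemia core complex, 5.54 and 3.06 FPKM), with a median of −0.01. The end-joining ligase LIG4 was at 1.28 and 6.88 FPKM (1.79, or 1.00). Of 48 chromatin genes, 11 were higher, 9 of them in the lowest 2 GC deciles, and 1 was lower, the chromatin protein HMGB3, at 26.7 and 13.1 FPKM (−0.98). The remodeler ATRX was at 0.64 and 6.10 FPKM (2.11, or 1.42) and CHD1 at 7.73 and 24.5 FPKM (1.55, or 0.89). Of 53 splicing genes, 12 were higher, 9 of them in the lowest 2 GC deciles, and 0 lower. SREK1, a splicing regulator, was at 5.70 and 17.7 FPKM (1.48) and kept 1.44 with the trend subtracted.

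Replication histones had the highest list median, 0.68 over 14 measured genes, of which 7 were higher and 3 lower. Over all measured genes, 14.0% were higher and 1.88% lower. Histone copies share much of their sequence, so counts of single copies, and with them the list median and its rank, are uncertain. HIST2H2AA3 and HIST2H2AA4 carried the same values, 5.69 and 10.99 FPKM (0.84), and both count among the 7 higher. HIST1H4J had 80 expected counts in RKO NC and 0 in RKO shEZH2, and its near-identical copy HIST1H4K had 0 and 77, which leaves their sum nearly level. HIST1H2BK was at 14.4 and 57.3 FPKM, a ratio of 4.21 (3.61 to 4.92). HIST2H2BE was at 2.07 and 4.86 FPKM (0.93), whereas HIST1H4C was at 6.78 and 2.54 FPKM (−1.14) and HIST1H2BH at 19.9 and 11.96 FPKM (−0.69).

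Hypoxia targets were the list with the lowest median before the GC trend was subtracted, and lipid synthesis genes after it. Of 17 measured hypoxia targets, 7 were over 1.5-fold lower and 1 was higher, beside 1.88% and 14.0% of all measured genes. The median change of these targets was −0.30, or −0.26 with the GC trend subtracted. CA9, the carbonic anhydrase that hypoxia-inducible factor turns on, was at 7.48 FPKM in RKO NC and 1.49 FPKM in RKO shEZH2, from 219 and 43 expected counts, a ratio of 0.199 (0.140 to 0.277). NDRG1 was at 90.1 and 39.6 FPKM (−1.17), a ratio of 0.440 (0.418 to 0.462), and DDIT4, an inhibitor of mTORC1, at 27.5 and 12.2 FPKM (−1.11). The collagen prolyl hydroxylase P4HA2 was at 13.5 and 6.62 FPKM (−0.92) and ANKRD37 at 6.60 and 3.31 FPKM (−0.82). PDK1, which inhibits pyruvate dehydrogenase, was at 33.2 and 20.7 FPKM (−0.65). The angiogenic factor VEGFA at 22.3 and 18.7 FPKM (−0.24) and ADM at 24.2 and 21.8 FPKM (−0.15) differed less. The higher member was LOX, which passed the filter only through RKO shEZH2. ANGPTL4 was at 48.3 and 70.9 FPKM (0.55, or 0.61 with the GC trend subtracted). With that trend subtracted, 2 members were higher and 7 lower.

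Glycolytic genes also lay on the lower side. Of 14 measured genes of glycolysis and the pentose phosphate pathway, 3 were over 1.5-fold lower and 0 higher, beside 1.88% and 14.0% of all measured genes. At 1.2-fold, 8 were lower and 0 higher, beside 12.8% and 25.8% of all measured genes. The median was −0.29. The aldolase ALDOC was at 27.3 and 9.01 FPKM, a ratio of 0.333 (0.289 to 0.381). PGK1, phosphoglycerate kinase, was at 399 and 197 FPKM, from 18247 and 8911 expected counts, a ratio of 0.494 (0.482 to 0.507). PFKFB4, which sets the level of fructose 2,6-bisphosphate, was at 14.7 and 7.22 FPKM (−0.94). Lactate dehydrogenase LDHA was at 969.7 and 694.9 FPKM (−0.48), enolase ENO1 at 1781 and 1514 FPKM (−0.23) and PGAM1 at 509 and 419 FPKM (−0.28). The glucose transporter SLC2A1 was at 45.1 and 35.5 FPKM (−0.33), SLC2A3 at 6.20 and 6.63 FPKM (0.08), and the transport inhibitor TXNIP at 53.4 and 62.9 FPKM (0.23). In HCT116, the change of ALDOC was 0.04, that of PGK1 −0.08, that of PFKFB4 0.33 and that of LDHA 0.10. The study designed PCR primers for 13 genes of glucose metabolism, and 7 of them were in the table.

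Genes of lipid synthesis were lower to a like degree. Of 19 measured cholesterol and fatty acid genes, 2 were over 1.5-fold lower and 0 higher, beside 1.88% and 14.0% of all measured genes. Their median was −0.29. At 1.2-fold, 11 were lower and 1 higher, beside 12.8% and 25.8% of all measured genes. With the GC trend subtracted the median was −0.30. SCD, the desaturase that makes oleic acid, was at 212 and 109.8 FPKM, from 22139 and 11295 expected counts, a ratio of 0.516 (0.505 to 0.528). INSIG1, which holds the SREBP precursor in the endoplasmic reticulum, was at 30.9 and 16.6 FPKM (−0.86). ACAT2, an enzyme early in sterol synthesis, was at 42.0 and 29.3 FPKM (−0.51) and EBP, a sterol isomerase, at 63.2 and 48.2 FPKM (−0.38).

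In glutamine and nitrogen metabolism, 2 of 22 measured genes were over 1.5-fold higher and 1 lower, with a median of −0.05. Over all measured genes, 14.0% were higher and 1.88% lower. The higher genes included GFPT2, described above. The glutaminase GLS2 was at 12.8 and 8.11 FPKM (−0.60), asparagine synthetase ASNS at 47.9 and 32.3 FPKM (−0.55) and PYCR1, an enzyme of proline synthesis, at 130 and 97.8 FPKM (−0.41).

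Most housekeeping lists held few or no genes past 1.5-fold. Over all measured genes, 14.0% were higher and 1.88% lower. None of 17 respiratory chain genes, 15 proteasome genes or 11 cytosolic ribosome genes passed 1.5-fold in either direction, and their medians were 0.01, −0.12 and −0.14. Of 25 mitochondrial ribosome genes, 1 was higher, MRPL1, at 13.2 and 22.1 FPKM (0.70, or 0.28 with the GC trend subtracted). Of 43 genes of the unfolded protein and ATF4 responses, 1 was higher, DNAJB9, at 4.06 and 6.69 FPKM (0.60), and 0 were lower. Of 10 ribosome biogenesis genes, 2 were higher and 1 lower. The higher genes were TAF1D, at 18.4 and 44.6 FPKM (1.23), and RRP15, at 4.66 and 7.80 FPKM (0.64, or −0.29 with the GC trend subtracted). The lower gene was NPM3, a nucleolar chaperone, at 106.4 and 55.5 FPKM (−0.93). With the GC trend subtracted, 1 of these 10 genes was higher and 1 lower, beside 7.25% and 3.76% of all genes with a GC value.

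The remaining large falls belonged to no common list. SNX2, a sorting nexin of the retromer, was at 7.44 and 1.53 FPKM, from 932 and 189 expected counts, a ratio of 0.205 (0.175 to 0.240). BDH2 was at 4.25 and 1.02 FPKM (−1.38), MDP1 at 4.69 and 1.28 FPKM (−1.32), SS18L2 at 15.1 and 5.54 FPKM (−1.30), PRUNE1 at 14.6 and 5.61 FPKM (−1.24), ERICH5 at 11.1 and 4.53 FPKM (−1.13) and ST3GAL5, a ganglioside sialyltransferase, at 5.11 and 1.99 FPKM (−1.03). Of the 15 largest falls, 4, with the knockdown target EZH2 among them, were also over 1.5-fold lower in HCT116. The 1 over 1.5-fold higher there was the readthrough locus RBM14-RBM4. Among all 6263 genes measured in HCT116, 66 were over 1.5-fold lower and 140 higher. In HCT116, SNX2 was at 12.2 and 5.91 FPKM, PRUNE1 at 12.1 and 7.03 FPKM and SS18L2 at 19.1 and 10.8 FPKM. The lines do not share libraries, but the difference or likeness between them was not tested.

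In all, 7 entries were listed at 0 FPKM in 1 RKO library with at least 50 expected counts in the other, and 6 of them are readthrough or near-identical loci whose reads cannot be assigned with confidence. The kind of locus was not examined for LOC102724951. The pair HIST1H4J and HIST1H4K is given above. FAM72C, a member of a family of near-identical copies, had 0 expected counts in RKO NC and 124 in RKO shEZH2, at least 41.9-fold higher against a floor of 3 counts per library. HSPE1-MOB4 had 0 and 127.5, CORO7-PAM16 had 0 and 52.8, TNFAIP8L2-SCNM1 had 0 and 50.8, and LOC102724951 had 87 and 0. For the haemoglobin gene HBA1, which has a near-identical copy, 23 expected counts in RKO NC stood against 0 in RKO shEZH2.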

How the data were processed

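Messenger RNA of 2 RKO and 2 HCT116 cultures was sequenced, with 1 library per group. The authors mapped reads with Bowtie and quantified genes with RSEM, and deposited FPKM values and expected counts for 7640 genes. The rule that selected these genes was not given in the sources used here. The methods name a mouse build for these human cells, whereas the submitters' processing notes name BWA, Bowtie2, hg19 and GRCh37, with versions not given in the sources used here. The deposited table also holds log2 ratio columns between conditions, the authors' own comparisons, which were not used. FPKM were deposited to 2 decimals. In 13 symbols, a date written by spreadsheet software was restored to the gene symbol through RefSeq.

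Changes were computed on log2(FPKM + 1) for genes whose FPKM averaged 1 or more in the RKO pair, so the change of low genes is understated. Depth was estimated from genes with 1 long transcript, at least 3000 bases and 300 counts. Transcript length was inferred from count, FPKM and depth, and GC content is that of the GENCODE v29 transcript nearest that length. The GC trend was a lowess fit with a span of 0.3. Count ratios used expected counts rounded to whole numbers, with exact 95% conditional binomial intervals, and a floor of 3 counts. A gene list is described by its counts past 1.5-fold and its median, beside those over all genes. Named genes were EZH2 and PRC2 genes, the 15 largest rises and the 15 largest falls with at least 50 expected counts, genes at 0 in 1 library, up to 6 members of each list by size of change, markers and the study's glucose metabolism primer genes. Some genes so taken are not reported here. List members outside these 6, and the genes led by the change with the GC trend subtracted, were named after their values were seen. The members, the 36 lists and the tests were chosen with earlier results of these data known. Sequence windows left out MYBL1. The calculations were tested on simulated data. Python 3.11.15 with statsmodels 0.14.6 and scipy 1.17.1, and edgeR 4.0.16 for TMM (trimmed mean of M-values) factors of the rounded expected counts, were used. Alternatives covered the pseudocount, scaling, filter, threshold and GC or length trends.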

Additional observations from a re-analysis of the deposited data

Results flagged for a closer look

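Both results given here are readthrough loci, which share reads with their parent genes, and lay past 1.5-fold in opposite directions in the lines. Whether the lines truly differ was not tested. RBM14-RBM4 changed by −1.18 in RKO, from 6.87 to 2.47 FPKM, and by 0.80 in HCT116, from 1.49 to 3.33 FPKM. TNFAIP8L2-SCNM1 changed by 1.26 in RKO, where it was listed at 0 in the control and at 1.40 FPKM in the knockdown, and by −0.90 in HCT116, from 0.87 FPKM to a listed 0.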

How the results depend on the processing

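No paired analysis was possible because each group held 1 library. With 1 library a group, no setting measures the spread between cultures, and low counts limit genes near 1 FPKM most. The count of 723 genes over 1.5-fold higher was 441 at a mean of at least 5 FPKM, 370 with the GC trend subtracted, 372 with the GC and length trends subtracted, 1328 at 1.2-fold and 370 at 2-fold. The count of 97 lower was 172 and 186 with pseudocounts of 0.1 and 0.01, 171 for depth-scaled expected counts, 210 for TMM-scaled expected counts, 62 at a mean of at least 5 FPKM, 192 and 185 with the GC and the GC and length trends subtracted, 659 at 1.2-fold and 19 at 2-fold. The share of called genes that were higher was 88.2%, and 65.8% and 66.8% with these trends subtracted. The median change of the lowest GC decile, 0.80, was 0.94 and 0.96 with pseudocounts of 0.1 and 0.01, 0.98 and 0.93 for depth-scaled and TMM-scaled counts, 0.56 with no filter, and −0.0074 with either trend subtracted, as the subtraction itself removes it. EZH2 lay between −2.34 and −2.14 under all settings run. With the GC trend and then with both trends subtracted, the sign turned for RRP15 (−0.29 and −0.30), SKIL (−0.50 and −0.51), PIK3CA (−0.12 and −0.14) and DNAJB4 (−0.0133 and −0.0205), and with both subtracted also for LCOR (−0.0239) and the PRC2 list median (−0.0239). Of 132 named genes past 1.5-fold, 110 kept fold and direction with the GC trend subtracted and 129 under TMM. Scaling by the median of ratios moved values by 0.02.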
